A study of Mus musculus with 28 samples.

Results

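The genes described here encode the enzymes that break down glucose to pyruvate and lactate, the pyruvate dehydrogenase complex, the enzymes of the citric acid cycle, and 3 regulators of these steps. They were chosen by name, with earlier results of these data known, so their counts are not those of an independent choice. They are 39 of the 24421 genes counted in each library: 19 of glycolysis and lactate formation, 3 regulators (Pfkfb3, Pfkfb4 and Pdk1), 4 subunits of pyruvate dehydrogenase and 13 of the citric acid cycle. All 39 passed the filter on low counts that left 13159 genes to test.

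Dendritic cells (DC) were sorted from the spleens of untreated C57Bl/6 mice aged 6 to 12 weeks and their RNA was sequenced in bulk. Conventional type 1 cells (cDC1_WT, sorted as CD24+), conventional type 2 cells (cDC2_WT, sorted as CD172a+) and plasmacytoid cells (pDC_WT) came from Irf8fl/fl mice without Cre, with 8 libraries in each group. The pDC_TG group is 4 libraries of plasmacytoid cells of Irf8fl/fl Itgax-cre mice. There the promoter of Itgax, the CD11c gene, drives the recombinase. Every group therefore carries the loxP-flanked Irf8 allele, and pDC_TG alone also carries Cre, so the presence of Cre and the loss of Irf8 cannot be told apart. The Itgax promoter is active in other CD11c-bearing cells too, and no conventional cells of Cre-bearing mice are among the 28 libraries.

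Glycolysis turns glucose into pyruvate in the cytosol, and lactate dehydrogenase can reduce that pyruvate to lactate. Pyruvate dehydrogenase carries pyruvate into the mitochondrion's citric acid cycle as acetyl-CoA, and the cycle oxidises it and feeds biosynthesis. Many steps have several isozymes, encoded by separate genes that differ in kinetics and in the tissues that use them. In dendritic cells, stimulation through Toll-like receptors is known to be followed by a rapid rise in glycolysis, whereas the cells here were not stimulated.

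Libraries held 17299285 to 30787679 counts in genes. Levels are CPM, each gene's counts relative to its library's total, scaled by TMM, a normalisation that assumes most genes are unchanged. A gene is called when its edgeR adjusted p is under 0.05, and log2 fold changes (log2FC) come with their standard error (SE) after the ± sign. Irf8 itself stood at 5378 to 6536 CPM in pDC_WT and 1166 to 1787 CPM in pDC_TG, a mean 23.8% of the control level (exact two-sided permutation test, p = 0.00202). Of 8 pDC markers, 8 were lower in either conventional group than in pDC_WT, and 6 of 6 cDC1 markers were higher and 6 of 6 cDC2 markers lower in cDC1_WT than in cDC2_WT. The cDC2 list did not set cDC2_WT apart from pDC_WT as clearly: 3 of 6 were higher and 1 lower, with sums of 2603 to 3109 CPM against 1788 to 2564. In bulk libraries, fewer cells of a type and less RNA per cell cannot be told apart.

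Transcripts of the glycolytic enzymes were most abundant in cDC1_WT. The summed level of the 19 glycolytic genes was 4980 ± 156 CPM in cDC1_WT (SD, n = 8), 2903 ± 142 in cDC2_WT, 2442 ± 190 in pDC_WT and 2374 ± 80.1 in pDC_TG (n = 4). The cDC1_WT libraries lay between 4784 and 5237 CPM, above the highest library of any other group, 3095 CPM. The 13 citric acid cycle genes had another order. They summed to 3125 ± 97.7 CPM in cDC2_WT, 2446 ± 111 in cDC1_WT, 2007 ± 50.05 in pDC_TG and 1786 ± 112 in pDC_WT. Mdh2 alone, the mitochondrial malate dehydrogenase, accounted for 1324 CPM of the cDC2_WT sum and 381 CPM of the cDC1_WT sum. Without Mdh2 the cDC1_WT sum would be above that of cDC2_WT, so their order in the cycle rests on this gene. The 4 pyruvate dehydrogenase genes summed to similar values in the groups, with means from 211 to 252 CPM. These sums add genes of unequal length and are descriptions without a test. Among the WT groups, 23 of the 39 genes had their highest mean in cDC1_WT, 10 in cDC2_WT and 6 in pDC_WT.

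**Figure D1:**
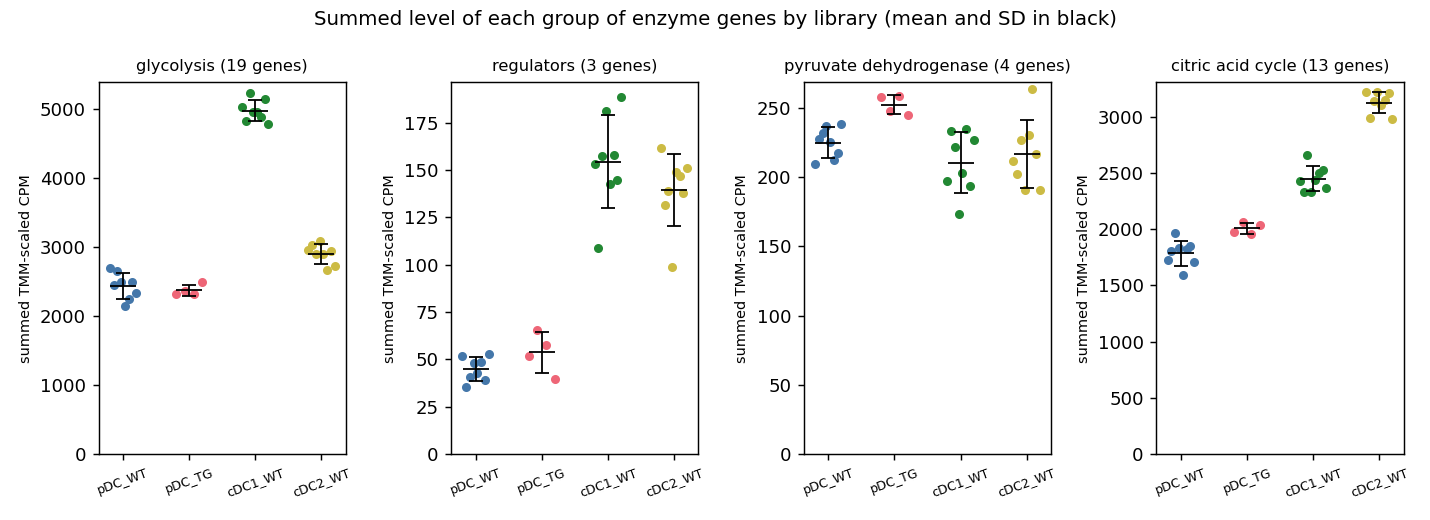
Summed TMM-scaled CPM of each group of enzyme genes (y axis, from 0) in each library (points), by group of libraries (x axis), with the mean and SD in black. The glycolytic sum was highest in all 8 cDC1_WT libraries (4784 to 5237 CPM). The citric acid cycle sum was highest in the 8 cDC2_WT libraries (2977 to 3222 CPM), a rank over cDC1_WT that rests on Mdh2.

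Between cDC1_WT and pDC_WT, 27 of the 39 genes were called higher in cDC1_WT and 5 lower, with 7 not called. Of all 13159 genes tested, 30.6% were called higher and 30.3% lower in the same comparison, and among those averaging at least 10 CPM the shares were 35.6% and 31.8%. The median log2FC of the 39 genes was 0.60, against -0.03 over all genes tested. With total counts as library size, which shifted the median of all genes to -0.28, the split became 21 higher and 10 lower. The libraries of the groups did not overlap for 23 of the 39 genes, against 30.3% of all genes tested.

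Between cDC2_WT and pDC_WT, 20 genes were called higher in cDC2_WT and 6 lower (28.8% and 28.3% of all genes tested, and 32% and 31.6% of those averaging at least 10 CPM), with a median log2FC of 0.19 against -0.01. Total counts as library size shifted the median of all genes to -0.16 and gave 14 higher and 10 lower. The libraries did not overlap for 16 genes, against 29.4% of all genes. Directly between the conventional groups, 15 genes were called higher in cDC1_WT and 9 lower (22.8% and 23.4% of all genes tested, and 29% and 26.3% of those averaging at least 10 CPM), with a median log2FC of 0.19 against -0.01. Non-overlapping libraries were seen for 20 genes, against 21.2% of all genes. The comparisons with pDC_WT share the same control libraries.

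**Figure D2:**
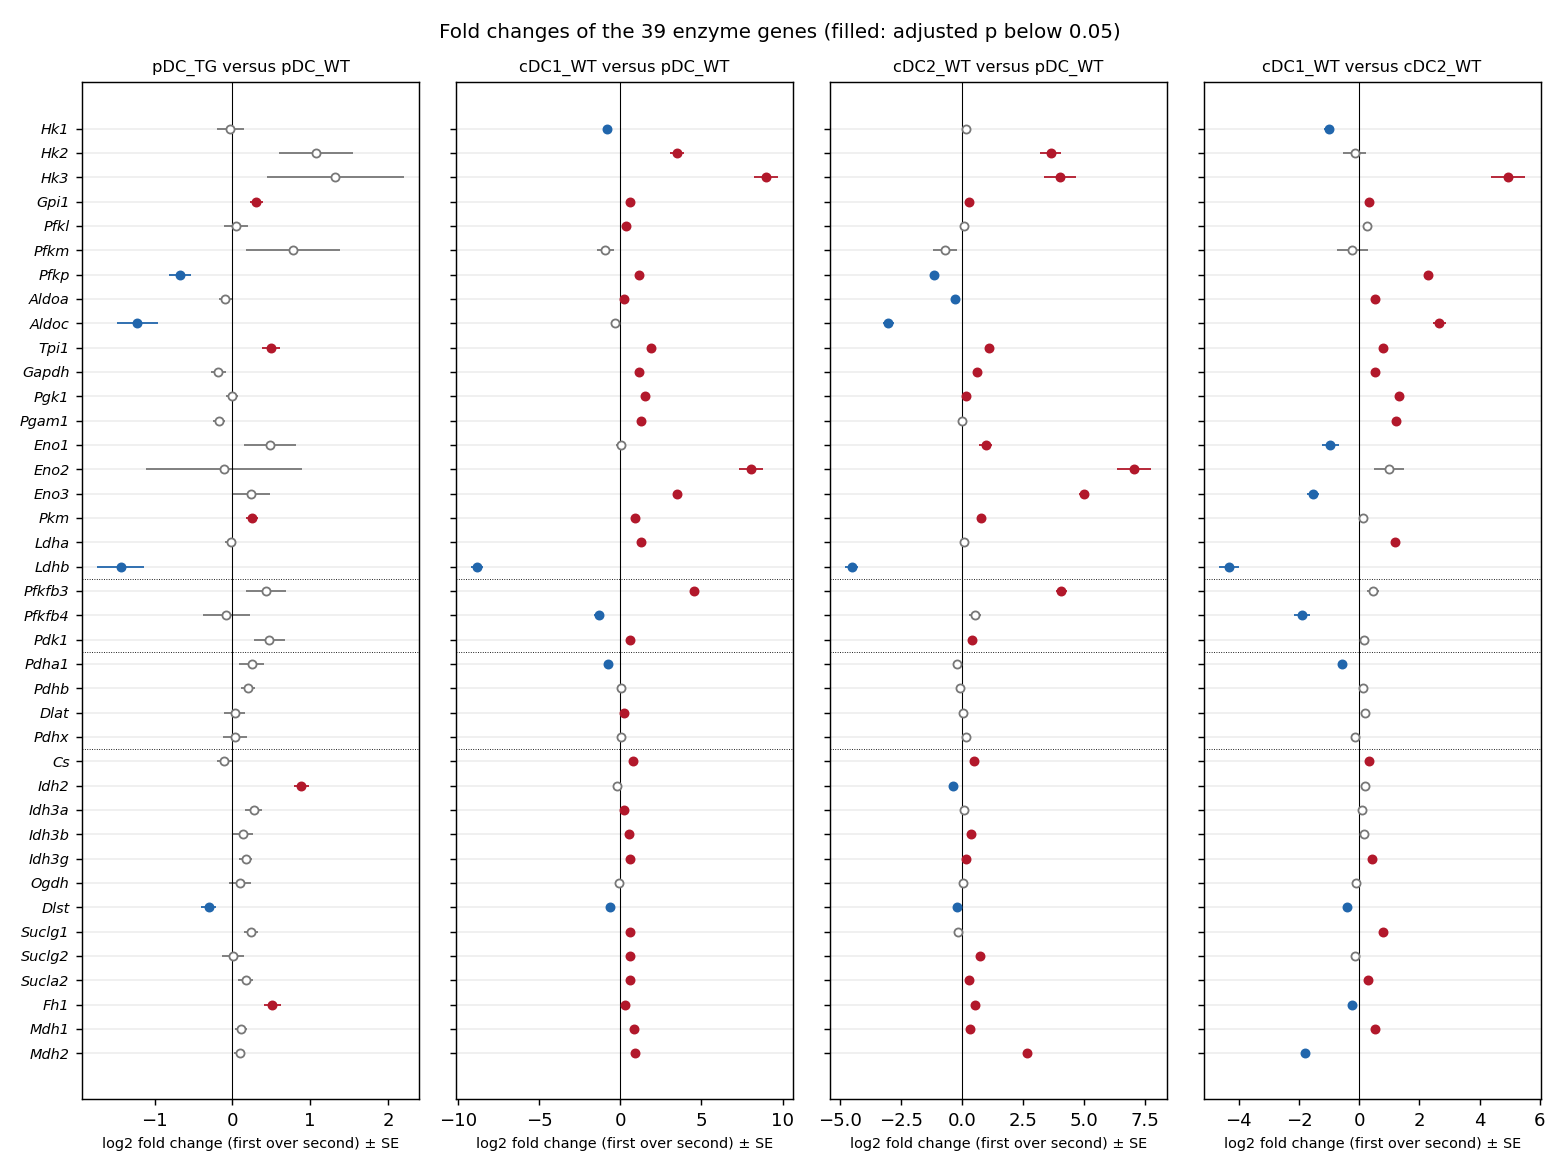
The log2FC ± SE (x axis) of the 39 enzyme genes (y axis, by role, divided by dotted lines into glycolysis, regulators, pyruvate dehydrogenase and citric acid cycle) in 4 comparisons, each panel with its own scale. Filled red points were called higher in the first-named group, filled blue points lower, and open points were not called; Hk3 and Ldhb mark the ends of the cDC1_WT versus pDC_WT panel at 8.97 and -8.83.

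Hexokinase, which traps glucose in the cell as glucose 6-phosphate, came mainly from Hk3 in cDC1_WT, mainly from Hk1 in pDC_WT and from a mixture of genes led by Hk1 in cDC2_WT. Hk3 ranged from 143 to 247 CPM in cDC1_WT (median 180), from 2.44 to 11.9 in cDC2_WT (median 6.07) and from 0 to 2.07 in pDC_WT (median 0). The groups did not overlap, and Hk3 was higher in cDC1_WT than in pDC_WT (log2FC 8.97 ± 0.72, adjusted p = 6.8e-12) and than in cDC2_WT (4.95 ± 0.56, 1.9e-08). It was also higher in cDC2_WT than in pDC_WT (4.03 ± 0.67, 6.9e-06). The fitted sizes over pDC_WT rest on few reads, since Hk3 had 53 counts in pDC_WT replicate 6, 23 in replicate 8, 1 in replicate 4 and 0 in the other 5. Hk2, the inducible form that binds mitochondria, ranged between 12.5 and 30.4 CPM in cDC1_WT, 13.5 to 39.8 in cDC2_WT and 0.337 to 5.53 in pDC_WT. Its fold changes over pDC_WT were 3.50 ± 0.43 (adjusted p = 3.4e-08) and 3.65 ± 0.43 (1.9e-08), and the difference between the conventional groups was not called (-0.15 ± 0.38, 0.79). Hk1, the widely expressed form, went the other way in cDC1_WT, with 13.9 to 41.7 CPM against 41.5 to 56.8 in pDC_WT (-0.85 ± 0.15, 1.0e-05) and 43.1 to 63.4 in cDC2_WT (-1.01 ± 0.15, 1.0e-06).

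Expressed per kilobase of annotated exon, so that isozymes can be set beside each other, Hk3 made up a mean 87.6% of the 3 hexokinase genes in cDC1_WT and 1.57% in pDC_WT. In pDC_WT 92.5% was Hk1. In cDC2_WT Hk1 made up 50.9%, Hk2 35.6% and Hk3 13.5%. Taking the longest transcript as the length in place of all exons gave 84.6% for Hk3 in cDC1_WT, 95.7% for Hk1 in pDC_WT and 65.1% for Hk1 in cDC2_WT, with the same leading gene in each group.

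**Figure D3:**
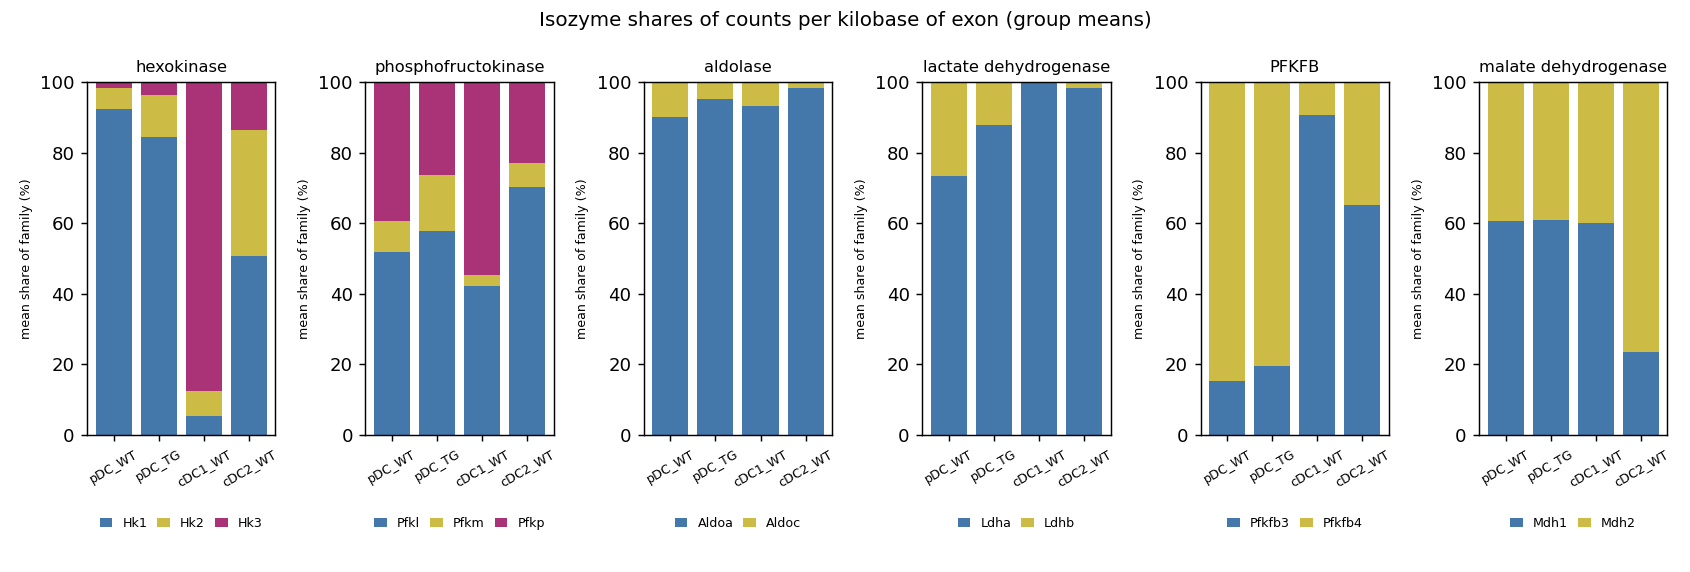
Mean share (y axis, percent) of each isozyme gene in the summed level per kilobase of exon of its family, for 6 families, in the 4 groups (x axis); PFKFB stands for Pfkfb3 and Pfkfb4. Hk3 fills 87.6% of the hexokinase bar in cDC1_WT, Ldhb 26.5% of the lactate dehydrogenase bar in pDC_WT, and Mdh2 76.5% of the malate dehydrogenase bar in cDC2_WT.

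Phosphofructokinase carries out the committed step of glycolysis. Pfkp, its platelet-type gene, was 160 to 247 CPM in cDC1_WT (median 209), 73.0 to 115 in pDC_WT (median 97.9) and 33.1 to 56.4 in cDC2_WT (median 43.1). None of these ranges overlapped. Pfkp was higher in cDC1_WT than in pDC_WT (log2FC 1.15 ± 0.12, adjusted p = 4.6e-10) and lower in cDC2_WT than in pDC_WT (-1.13 ± 0.12, 7.8e-10), and the conventional groups differed by 2.28 ± 0.12 (3.4e-16). The liver-type gene Pfkl varied less, with means of 82.2 ± 14.3 CPM in cDC1_WT, 68.4 ± 10.4 in cDC2_WT and 63.9 ± 14.4 in pDC_WT, and was called only for cDC1_WT over pDC_WT (0.36 ± 0.13, 0.014). That call was lost with total counts as library size (0.12, 0.45) and with WT replicates 1 to 4 alone (0.24, 0.25). The muscle-type gene Pfkm averaged 2.86 to 5.38 CPM in the WT groups and was not called in any comparison, but total counts (-1.18, 0.045) or WT replicates 1 to 4 alone (-1.26, 0.032) gave a call lower in cDC1_WT than in pDC_WT. Per length, Pfkp held 54.6% of the family in cDC1_WT, 39.4% in pDC_WT and 22.8% in cDC2_WT.

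Pfkfb3 and Pfkfb4 encode bifunctional enzymes that make and break fructose 2,6-bisphosphate, the strongest activator of phosphofructokinase. Pfkfb3, whose product is weighted towards making it, was 73.2 to 151 CPM in cDC1_WT (median 113), 47.3 to 107 in cDC2_WT (median 87.1) and 2.07 to 7.91 in pDC_WT (median 5.08). It was higher in both conventional groups (log2FC 4.54 ± 0.23, adjusted p = 6.5e-17, and 4.08 ± 0.23, 6.5e-16), and their own difference was not called (0.47 ± 0.20, 0.051), except with these groups alone in the fit (0.45, 0.016). Pfkfb4 was lowest in cDC1_WT, 2.89 to 13.7 CPM, against 12.6 to 25.1 in pDC_WT (-1.34 ± 0.25, 3.6e-05) and 22.4 to 31.8 in cDC2_WT (-1.89 ± 0.26, 3.2e-07). Between cDC2_WT and pDC_WT it was not called as designed. It was called higher in cDC2_WT with DESeq2 (0.57, 0.045), these groups alone (0.57, 0.0023), a replicate block (0.59, 0.040) and WT replicates 5 to 8 alone (0.79, 0.039). Per length, Pfkfb3 was 90.6% of this pair in cDC1_WT, 65.2% in cDC2_WT and 15.3% in pDC_WT.

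Among the steps between, Gpi1, which isomerises glucose 6-phosphate, averaged 324 ± 23.5 CPM in cDC1_WT, 258 ± 16.1 in cDC2_WT and 212 ± 27.8 in pDC_WT. The widely expressed aldolase gene Aldoa averaged 322 ± 7.59 CPM in cDC1_WT, 273 ± 27.5 in pDC_WT and 223 ± 18.3 in cDC2_WT, and was lower in cDC2_WT than in pDC_WT (log2FC -0.29 ± 0.07, adjusted p = 0.00044). Its rise in cDC1_WT over pDC_WT (0.24 ± 0.07, 0.0029) was not called with total counts as library size (-0.0089, 0.91) or with WT replicates 1 to 4 alone (0.16, 0.19), nor the difference in cDC2_WT with WT replicates 5 to 8 alone (-0.17, 0.19). Aldoc, the brain-type aldolase, was 23.3 to 47.7 CPM in pDC_WT, 21.1 to 40.6 in cDC1_WT and 1.80 to 8.62 in cDC2_WT. It was lower in cDC2_WT than in pDC_WT (-3.01 ± 0.23, 7.1e-13) and than in cDC1_WT, where it was higher by 2.66 ± 0.22 (1.8e-11). Tpi1, which interconverts the triose phosphates, ranged from 138 to 180 CPM in cDC1_WT, from 82.8 to 102 in cDC2_WT and from 32.1 to 59.3 in pDC_WT. Its groups were fully separated, with a log2FC over pDC_WT of 1.89 ± 0.10 (9.2e-17) in cDC1_WT and 1.09 ± 0.10 (2.9e-11) in cDC2_WT.

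The later steps of the pathway, from glyceraldehyde 3-phosphate to lactate, were higher in cDC1_WT at most steps. Pgk1, which makes the first ATP of the pathway, was 293 to 379 CPM in cDC1_WT, 123 to 145 in cDC2_WT and 105 to 135 in pDC_WT. Its log2FC was 1.5 ± 0.06 over pDC_WT (adjusted p = 7.5e-19) and 1.32 ± 0.06 over cDC2_WT (4.3e-17). Pgam1, the phosphoglycerate mutase, was 371 to 438 CPM in cDC1_WT, 145 to 188 in cDC2_WT and 149 to 180 in pDC_WT (1.26 ± 0.06, 8.0e-18, and 1.24 ± 0.06, 3.6e-17). Ldha, the lactate dehydrogenase subunit that favours lactate formation, was 1506 to 1761 CPM in cDC1_WT, 604 to 804 in cDC2_WT and 610 to 729 in pDC_WT. Its log2FC was 1.27 ± 0.06 over pDC_WT (1.0e-17) and 1.17 ± 0.06 over cDC2_WT (1.9e-16), whereas cDC2_WT and pDC_WT were not called apart (0.09 ± 0.06, 0.18). For these 3 genes every cDC1_WT library lay above every other library. Gapdh averaged 586 ± 48.9 CPM in cDC1_WT, 403 ± 40.1 in cDC2_WT and 260 ± 33.9 in pDC_WT, and Pkm, the pyruvate kinase gene of most tissues, 598 ± 45.5, 550 ± 48.0 and 318 ± 35.2 CPM. Both were called higher in each conventional group than in pDC_WT.

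Some of these genes have near copies elsewhere in the genome, and the sources used here do not say how the authors' counting treated them. Of the 75-base windows of the longest coding transcript, the read length used, 80.3% in Gapdh, 67.5% in Pgk1, 65.4% in Eno1 and 40.6% in Pgam1 also occur in transcripts of other annotated genes, so their counts are uncertain. The share was 19.9% in Pdhb, 19.6% in Pkm, 16.7% in Ldhb, 16.6% in Pfkp, 16.0% in Suclg2, 14.8% in Gpi1 and 13.9% in Pdha1. It was 5.23% in Ldha, and 0 in Hk2, Hk3, Eno3, Pfkfb3, Idh2, Fh1 and Mdh2. Exons of other annotated genes also overlap 16.1% of the exon bases of Pdha1, 15.3% of Pkm, 11.5% of Gpi1 and 10.7% of Pfkm, and without strand such reads cannot be told apart.

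Promoters of glycolytic genes are known to hold sites of hypoxia-inducible factor, whose core letters are ACGTG or GCGTG. The promoter windows below run from 250 bases before to 50 after a RefSeq start site (build GRCm38.p6). They show 3 of the genes with every cDC1_WT library above every library of the other groups (Ldha, Pgk1 and Pgam1). Beside them is the pair with the largest opposite changes (Hk3 and Ldhb). Capitals mark ACGTG or GCGTG on either strand, so that CACGT and CACGC are matches on the other strand, and CACGTG is a match on both. They lie at chr7:46845554-46845853 (+) for Ldha, chrX:106186850-106187149 (+) for Pgk1, chr19:41911621-41911920 (+) for Pgam1, chr13:55021336-55021635 (-) for Hk3 and chr6:142507908-142508207 (-) for Ldhb.
Ldha: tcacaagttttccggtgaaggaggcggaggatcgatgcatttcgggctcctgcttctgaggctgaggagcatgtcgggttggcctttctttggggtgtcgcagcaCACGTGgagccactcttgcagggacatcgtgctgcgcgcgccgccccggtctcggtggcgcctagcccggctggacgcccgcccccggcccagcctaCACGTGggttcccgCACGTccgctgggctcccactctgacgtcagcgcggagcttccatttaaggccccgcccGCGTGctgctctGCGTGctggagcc
Pgk1: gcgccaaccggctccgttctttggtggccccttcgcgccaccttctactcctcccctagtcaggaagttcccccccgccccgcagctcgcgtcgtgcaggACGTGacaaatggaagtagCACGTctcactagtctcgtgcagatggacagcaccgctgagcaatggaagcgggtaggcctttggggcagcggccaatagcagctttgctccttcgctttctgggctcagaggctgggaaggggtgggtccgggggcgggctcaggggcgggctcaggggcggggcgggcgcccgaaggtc
Pgam1: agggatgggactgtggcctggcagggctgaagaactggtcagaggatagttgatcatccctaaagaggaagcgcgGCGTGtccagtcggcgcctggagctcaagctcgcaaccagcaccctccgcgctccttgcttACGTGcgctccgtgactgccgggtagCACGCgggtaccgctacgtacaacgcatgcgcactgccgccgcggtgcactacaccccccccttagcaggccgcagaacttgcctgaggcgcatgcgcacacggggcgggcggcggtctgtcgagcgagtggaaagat
Hk3: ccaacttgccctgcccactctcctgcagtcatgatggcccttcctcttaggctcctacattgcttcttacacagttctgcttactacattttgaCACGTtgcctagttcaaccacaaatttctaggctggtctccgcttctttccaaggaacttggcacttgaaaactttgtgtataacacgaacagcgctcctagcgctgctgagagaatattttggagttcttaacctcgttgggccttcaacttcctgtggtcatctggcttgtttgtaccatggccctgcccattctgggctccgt
Ldhb: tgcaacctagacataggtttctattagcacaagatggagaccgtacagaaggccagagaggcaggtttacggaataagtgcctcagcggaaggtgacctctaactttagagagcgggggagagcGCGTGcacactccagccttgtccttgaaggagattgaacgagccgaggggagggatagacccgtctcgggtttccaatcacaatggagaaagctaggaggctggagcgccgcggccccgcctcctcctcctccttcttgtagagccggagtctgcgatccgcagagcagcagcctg

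Counting each strand, the printed Ldha window held 7 matches, Pgam1 3, Pgk1 2, and Hk3 and Ldhb 1 each. A second Ldha window, at chr7:46846832-46847131 and not printed, held 0 ACGTG and 2 GCGTG. Other enzyme genes also had every cDC1_WT library above all others, and their windows are not printed. Those windows held 0 ACGTG and 0 GCGTG in both Gpi1 and Tpi1, and 0 and 4 in Pfkp. They held 1 and 2 in Gapdh, 1 and 0 in Mdh1, 0 and 3 in Suclg1, and 1 and 1 in Idh3g. Over the 56 windows of the 38 enzyme genes found in the table, 42.9% held ACGTG and 55.4% held GCGTG, against 19.6% and 32.4% of all 32851 windows. The enzyme windows also had more CG dinucleotides, a median of 20 against 7, and both cores contain a CG. The E-box CACGTG, which contains ACGTG and is bound by Myc, was in 10.7% of enzyme windows and 7.15% of all windows. Motifs of interferon regulatory factors were rare: the interferon-stimulated response element was in 1.79% of enzyme windows and 3.44% of all, and the composite element bound with an Ets factor in 1.79% and 2.72%. These matches are descriptions of letters.

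Enolase, the next step after the mutase, showed the muscle-type gene Eno3 at 106 to 138 CPM in cDC2_WT, 31.8 to 74.6 in cDC1_WT and 2.63 to 5.16 in pDC_WT. Eno3 was higher than in pDC_WT by a log2FC of 5.01 ± 0.22 in cDC2_WT (adjusted p = 1.6e-18) and 3.48 ± 0.21 in cDC1_WT (2.3e-15), and lower in cDC1_WT than in cDC2_WT (-1.53 ± 0.19, 4.1e-08). The neuron-type gene Eno2 had 4 counts in all 8 pDC_WT libraries together, and 1.60 to 13.5 CPM in cDC1_WT and 0.829 to 8.42 in cDC2_WT. It was called higher in both (8.05 ± 0.73, 4.7e-11, and 7.05 ± 0.71, 5.5e-10), with fitted sizes that rest on those 4 counts. Eno1, which encodes the main enolase of most tissues, was listed at only 1.35 to 6.49 CPM over the WT libraries. It was called lower in cDC1_WT than in cDC2_WT (-0.95 ± 0.28, 0.0051), though not with WT replicates 1 to 4 (-1.24, 0.053) or 5 to 8 (-0.69, 0.17) alone, and its sequence is mostly shared with other genes, so no share of the enolase family is given.

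Ldhb, the lactate dehydrogenase subunit that favours the use of lactate, was lowest in cDC1_WT, where Ldha was highest. Between cDC2_WT and pDC_WT only Ldhb differed, since Ldha was not called there. Ldhb was 89.4 to 151 CPM in pDC_WT (median 114), 3.27 to 6.29 in cDC2_WT (median 5.45) and 0 to 0.601 in cDC1_WT (median 0.211). The ranges did not overlap, and the log2FC relative to pDC_WT was -8.83 ± 0.35 in cDC1_WT (adjusted p = 2.1e-19) and -4.51 ± 0.26 in cDC2_WT (3.0e-15), with -4.32 ± 0.33 between the conventional groups (3.9e-12). Per length Ldhb made up 26.5% of both subunits' transcripts in pDC_WT (19.2% by longest transcript), 1.48% in cDC2_WT and 0.0323% in cDC1_WT. Ldha remained the most abundant of the 39 genes per kilobase in pDC_WT (204 CPM per kilobase) and in cDC1_WT (493), and came after Mdh2 in cDC2_WT (218 against 372).

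**Figure D4:**
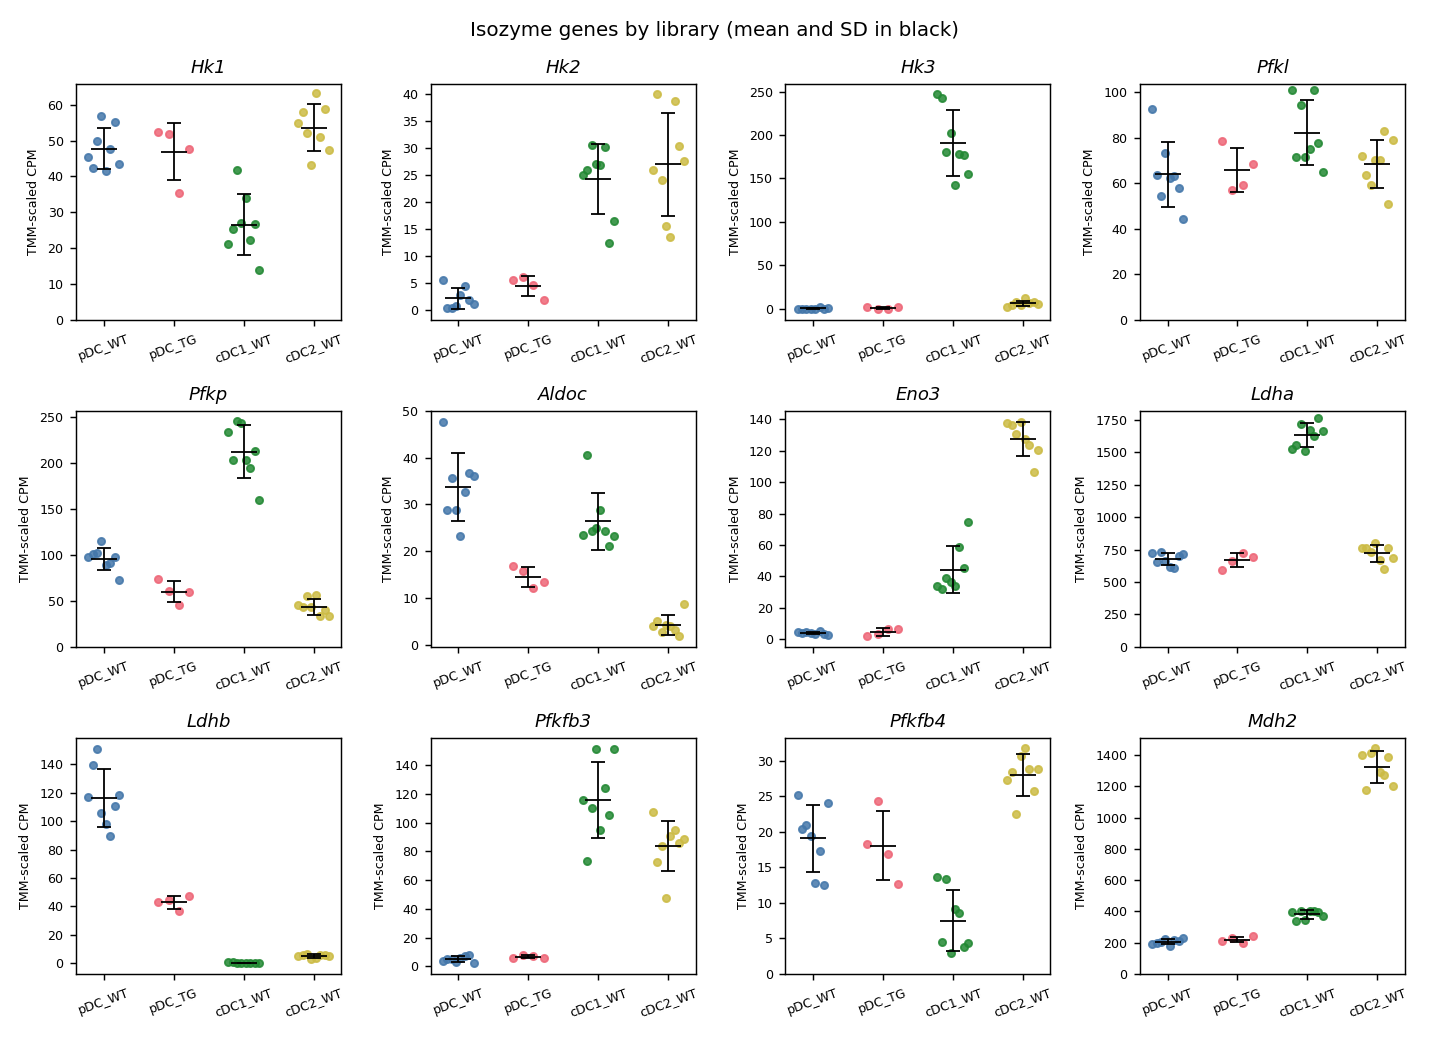
TMM-scaled CPM (y axis) of 12 isozyme genes in each library (points), by group (x axis), with the mean and SD in black; each panel has its own scale. Hk3 is high in the 8 cDC1_WT libraries alone (143 to 247 CPM), Ldhb in the plasmacytoid groups, and Mdh2 in the 8 cDC2_WT libraries (1174 to 1446 CPM).

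Pyruvate dehydrogenase differed least between the cell types. Pdha1, its catalytic subunit, was lower in cDC1_WT, 23.3 to 51.5 CPM, than in pDC_WT, 52.5 to 82.4 (log2FC -0.75 ± 0.13, adjusted p = 1.5e-05), and than in cDC2_WT (-0.55 ± 0.13, 0.00099), the latter not with WT replicates 5 to 8 alone (-0.47, 0.051). Dlat, the acetyltransferase core, was at the threshold for cDC1_WT over pDC_WT (0.25 ± 0.11, 0.045). The call was lost with DESeq2 (0.24, 0.055), with no filter (0.25, 0.057), with these groups alone (0.22, 0.091), with either set of 4 WT replicates (0.26, 0.16, and 0.23, 0.24) and with total counts (0.0025, 0.99). Pdhb and Pdhx were not called in any comparison; with total counts as library size, Pdhb was lower in cDC1_WT than in pDC_WT (-0.21, adjusted p = 0.014) and in cDC2_WT than in pDC_WT (-0.24, 0.0063). Pdk1, a kinase that inhibits the complex, was higher in cDC1_WT (0.58 ± 0.16, 0.0031) and cDC2_WT (0.42 ± 0.16, 0.031) than in pDC_WT, with overlapping libraries. Neither was called with total counts (0.33, 0.082, and 0.26, 0.18), nor the cDC2_WT difference with WT replicates 1 to 4 (0.61, 0.067) or 5 to 8 (0.24, 0.32) alone.

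In the citric acid cycle, the largest difference was in Mdh2. It ranged from 1174 to 1446 CPM in cDC2_WT (median 1338), from 337 to 401 in cDC1_WT (median 395) and from 177 to 232 in pDC_WT (median 211). None of the ranges overlapped: Mdh2 was higher in cDC2_WT than in pDC_WT (log2FC 2.68 ± 0.07, adjusted p = 1.0e-24), higher in cDC1_WT than in pDC_WT (0.88 ± 0.06, 1.6e-13) and lower in cDC1_WT than in cDC2_WT (-1.80 ± 0.06, 2.2e-20). Mdh1, the cytosolic form that works in the malate-aspartate shuttle, was instead highest in cDC1_WT, with means of 416 ± 35.0 CPM there, 292 ± 26.4 in cDC2_WT and 230 ± 17.1 in pDC_WT. Per length Mdh2 was 76.5% of this pair in cDC2_WT and 39.3% to 39.8% in the other WT groups (85.6% and 54.3% to 54.8% by longest transcript). The gene spans chr5:135778480-135790398 on the plus strand in the GENCODE annotation of GRCm38, where no exon of another gene overlaps it.

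The other cycle genes differed by less than 2-fold between the WT groups. Citrate synthase (Cs), which admits acetyl-CoA to the cycle, averaged 364 ± 41.5 CPM in cDC1_WT, 291 ± 27.8 in cDC2_WT and 208 ± 20.4 in pDC_WT and was called in all 3 comparisons, though not between the conventional groups with WT replicates 5 to 8 alone (0.27, 0.079). Suclg1, the subunit shared by both succinyl-CoA ligases, was 154 to 214 CPM in cDC1_WT, apart from 92.0 to 117 in cDC2_WT and 93.1 to 134 in pDC_WT. The partner subunits divided: Sucla2 of the ATP-forming enzyme was higher in cDC1_WT than in cDC2_WT (log2FC 0.30 ± 0.08, adjusted p = 0.0025; 0.052 and 0.051 with each set of 4 WT replicates), whereas Suclg2 of the GTP-forming enzyme was not called between them (-0.15 ± 0.12, 0.32). Dlst, the transferase of the oxoglutarate dehydrogenase complex, was lower than in pDC_WT in cDC1_WT (-0.61 ± 0.08, 3.6e-08) and cDC2_WT (-0.21 ± 0.08, 0.02; -0.10, 0.42 with WT replicates 5 to 8 alone). Ogdh, the first subunit of that complex, was not called, except lower in cDC1_WT than in pDC_WT with total counts as library size (-0.31, 0.028). Idh2, the NADP-dependent mitochondrial isocitrate dehydrogenase, was lower in cDC2_WT than in pDC_WT (-0.37 ± 0.08, 0.0003). Between cDC1_WT and pDC_WT it was not called as designed, but was lower in cDC1_WT with DESeq2 (-0.19, 0.039) and with total counts (-0.42, 3.1e-05). Fumarase (Fh1) was higher in both conventional groups, by 0.30 ± 0.09 (0.0051) in cDC1_WT and 0.55 ± 0.09 (6.4e-06) in cDC2_WT. The cDC1_WT difference was not called with total counts (0.054, 0.62) or with WT replicates 1 to 4 alone (0.21, 0.21). Of the NAD-dependent isocitrate dehydrogenase, Idh3b and Idh3g were called higher in both conventional groups than in pDC_WT, and Idh3a in cDC1_WT (0.21 ± 0.09, 0.041). In cDC2_WT the calls were lost with total counts (Idh3b 0.23, 0.053; Idh3g 0.038, 0.66) and with WT replicates 1 to 4 alone (0.25, 0.25, and 0.13, 0.34), and Idh3g also with WT replicates 5 to 8 (0.24, 0.062). Idh3a was not called with DESeq2 (0.20, 0.051), no filter (0.21, 0.051), these groups alone (0.19, 0.13) or either set of 4 WT replicates (0.22, 0.18, and 0.19, 0.15), and total counts reversed its sign (-0.037, 0.72).

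Cell-state lists moved with the same contrasts. The 9 proliferation markers were all called higher in each conventional group than in pDC_WT, with summed levels of 663 to 741 CPM in cDC1_WT, 516 to 723 in cDC2_WT and 117 to 166 in pDC_WT. Immediate early genes, which also respond to tissue dissociation, summed to 14938 to 19735 CPM in cDC2_WT, 7590 to 13779 in cDC1_WT and 4077 to 6973 in pDC_WT, with 7 of 9 called higher in cDC2_WT and 6 of 9 in cDC1_WT. Of 6 macrophage and monocyte markers, 5 were called higher and 1 lower in cDC2_WT than in pDC_WT, and 3 and 1 in cDC1_WT. Their sums were 435 to 536 CPM in cDC2_WT, 80.8 to 141 in cDC1_WT and 1947 to 2603 in pDC_WT. The higher pDC_WT sum comes from the 1 marker called lower (log2FC -10.98 in cDC2_WT and -8.60 in cDC1_WT). It does not stand for the list, since the other 5 had positive log2FC in both conventional groups. The part of these lists in the enzyme results was not tested.

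In pDC_TG, most of the enzyme genes were not called: 5 of 39 were higher than in pDC_WT, 4 lower and 30 not called. Over all genes tested, 7.72% were called higher and 7.04% lower, and among those averaging at least 10 CPM 9.5% and 9.86%. Counts of 5 and 4 among 39 genes are near that background. Their median log2FC was 0.11, against 0 over all genes. The libraries did not overlap for 5 of the 39, against 9.71% of all genes. By role, glycolysis had 3 higher and 3 lower, the citric acid cycle 2 higher and 1 lower, and 0 of 3 regulators and 0 of 4 pyruvate dehydrogenase genes were called by edgeR or DESeq2, with 1 of each at an unadjusted p under 0.05.

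The most significant change was in Idh2. It stood at 173, 240, 208 and 210 CPM in the pDC_TG libraries and at 87.1 to 131 in pDC_WT (median 115). Every pDC_TG library was above every control, and above every conventional library, which reached 113 CPM at most. The log2FC was 0.88 ± 0.10 (adjusted p = 6.9e-08), a 1.84-fold rise. Fh1 was 153, 191, 192 and 187 CPM in pDC_TG against 95.2 to 145 in pDC_WT, again without overlap (0.52 ± 0.11, 0.0012).

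Ldhb and Aldoc fell most. Ldhb was 43.0, 44.4, 36.8 and 47.5 CPM in the pDC_TG libraries against 89.4 to 151 in pDC_WT, a fall to a level still well above the 3.27 to 6.29 CPM of cDC2_WT (log2FC -1.44 ± 0.30, adjusted p = 0.0008). Its share of lactate dehydrogenase transcripts per length was 12.0% in pDC_TG (8.27% by longest transcript), below the 26.5% of pDC_WT. Ldha was not called (-0.02 ± 0.07, 0.92). Aldoc was 16.7, 15.7, 12.1 and 13.3 CPM against 23.3 to 47.7, with no overlap (-1.22 ± 0.27, 0.0015). Pfkp was 73.9, 61.2, 46.1 and 59.8 CPM against 73.0 to 115, so that the highest pDC_TG library reached the lowest control (-0.67 ± 0.14, 0.0011).

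The remaining calls were small. Tpi1 was 55.1, 62.9, 58.8 and 62.4 CPM in pDC_TG against 32.1 to 59.3 in pDC_WT (log2FC 0.49 ± 0.11, adjusted p = 0.0027). Gpi1 (0.30 ± 0.08, 0.011), Pkm (0.25 ± 0.08, 0.033) and Dlst (-0.30 ± 0.09, 0.023) changed by less than 1.5-fold. With pDC_TG and pDC_WT libraries alone in the fit, these 3 were no longer called (adjusted p = 0.057 for Gpi1, 0.084 for Pkm and 0.073 for Dlst). These calls lay near the threshold, and some were lost when 1 pDC_TG library was left out, which leaves fewer libraries. The log2FC then ran from 0.22 to 0.27 for Pkm and from -0.35 to -0.27 for Dlst. Pkm lost its call without replicate 1 (log2FC 0.22, adjusted p = 0.11), replicate 2 (0.26, 0.070) or replicate 3 (0.26, 0.068). Dlst lost its call without replicate 2 (-0.29, 0.071), replicate 3 (-0.27, 0.097) or replicate 4 (-0.30, 0.064). Gpi1 lost its call without replicate 4 (0.25, 0.081). With WT replicates 1 to 4 alone, Tpi1 (0.31, adjusted p = 0.13), Gpi1 (0.16, 0.32) and Pkm (0.16, 0.23) were not called, and with WT replicates 5 to 8 alone Dlst was not (-0.19, 0.25). Dlst also lost its call with total counts as library size (-0.26, 0.066). Tested against a 1.5-fold change in place of no change, 1 gene remained higher and 1 lower.

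**Figure D5:**
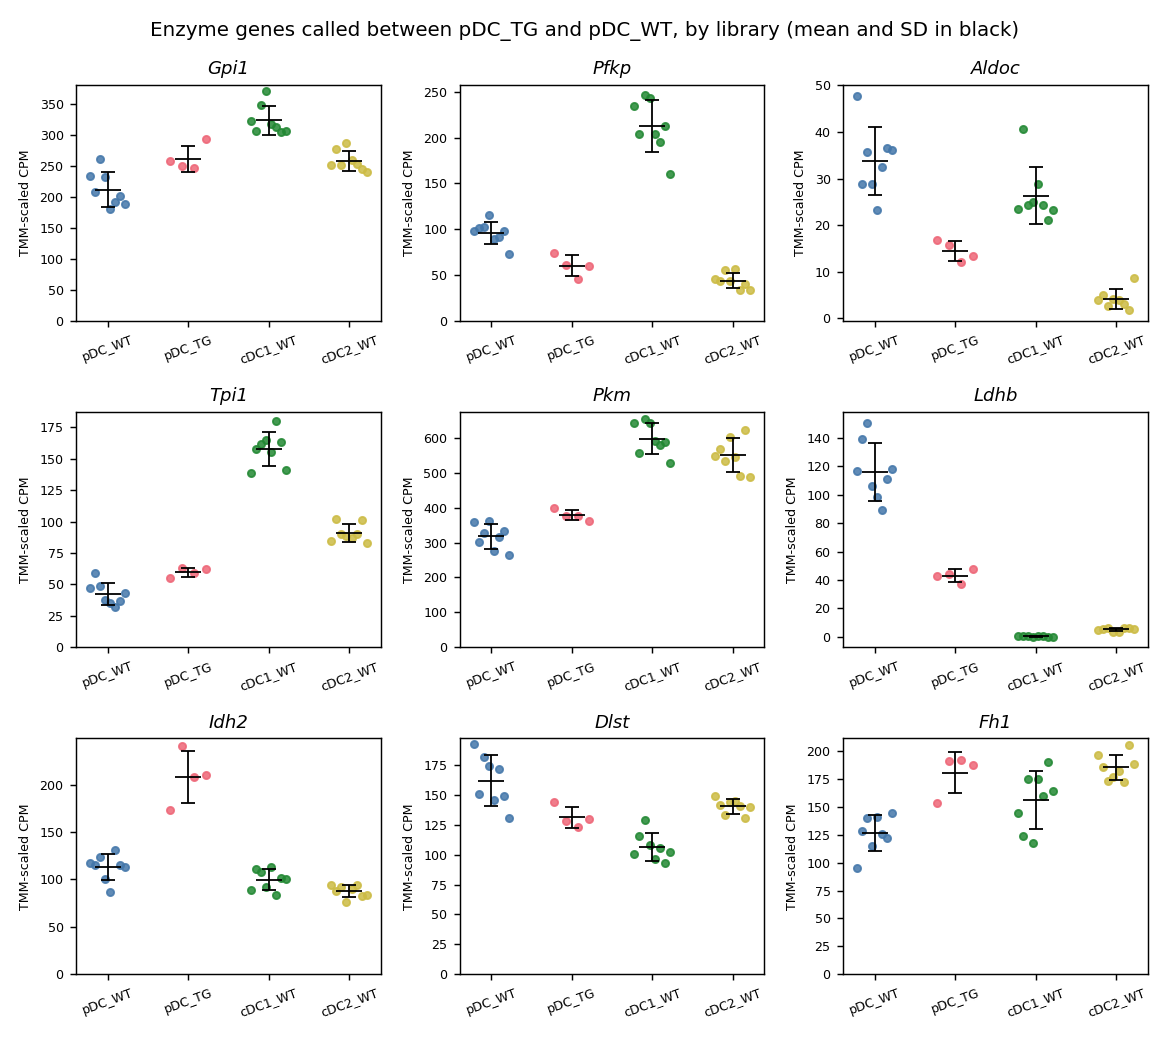
TMM-scaled CPM (y axis) of the 9 enzyme genes called between pDC_TG and pDC_WT, in each library (points) of the 4 groups (x axis), with the mean and SD in black; each panel has its own scale. Idh2 in the 4 pDC_TG libraries (173 to 240 CPM) lies above all other groups, and Ldhb in pDC_TG (36.8 to 47.5 CPM) lies between pDC_WT and the conventional groups.

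Several genes that mark the conventional groups were not called in pDC_TG. Hk2 was 1.91 to 6.09 CPM there (log2FC 1.08 ± 0.48, adjusted p = 0.14), Hk3 0 to 2.42 CPM (1.33 ± 0.88, 0.38), Pfkfb3 5.41 to 8.13 CPM (0.43 ± 0.25, 0.30) and Mdh2 199 to 241 CPM (0.09 ± 0.08, 0.52). Hk3 had 63 counts in pDC_TG replicate 1, 44 in replicate 4 and 0 in the other libraries, and its log2FC ran from 0.38 to 1.76 when 1 pDC_TG library was left out. Against WT replicates 1 to 4 alone, which held 1 count of Hk3, it was called higher (adjusted p = 0.027). Eno2 was at or near 0 in both plasmacytoid groups and no fold is given.

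Markers of other cells and states also moved with pDC_TG. The cDC1 list summed to 469 to 861 CPM in pDC_TG against 337 to 409 in pDC_WT, with 2 of 6 called higher and 2 lower. The log2FC in that list ran from -4.05 to 3.71, and among the called genes Cd8a rose (1.31) and Clec9a fell (-3.79). The cDC2 list summed to 1432 to 1695 CPM against 1788 to 2564, also with 2 of 6 higher and 2 lower: Itgam (6.23) and Irf4 (1.58) rose, and Cd4 (-0.73) and Cd209a (-1.29) fell. Exons of Gm49368 overlap 68.7% of the exon bases of Itgam, so its counts are uncertain. Of the 8 pDC markers 1 was higher and 2 lower, and their sums overlapped (9361 to 12541 CPM against 9533 to 12728). Proliferation markers summed to 160 to 316 CPM in pDC_TG against 117 to 166 in pDC_WT, with 6 of 9 called higher, Mki67 and Top2a not among them. The neutrophil list summed to 198 CPM in pDC_TG replicate 4 and to 0.230 to 4.59 in the other 3 libraries, against 0.195 to 2.62 in pDC_WT. Without replicate 4, 4 enzyme genes were called higher and 3 lower, and Idh2, Fh1, Ldhb, Aldoc and Pfkp were among them. The T cell list summed to 58.1 to 116 CPM against 6.16 to 13.7, carried by Lck and Cd5, while the defining genes Cd3e, Cd3d and Cd3g were at 1.08 CPM or less in every pDC_TG library. Of the 6 macrophage and monocyte markers 0 were called higher and 2 lower, with log2FC from -5.27 to 0.19 in the list. Of the 9 immediate early genes 4 were called higher and 0 lower, with log2FC from -1.27 to 3.09. Their sums overlapped, 4909 to 6422 CPM in pDC_TG against 4077 to 6973 in pDC_WT. The part of proliferation, of immediate early genes and of the dendritic cell, macrophage and monocyte markers in the enzyme results was not tested.

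Genes around the pathway were taken as further lists, whose counts are read against the shares of all genes tested: 30.6% higher and 30.3% lower in cDC1_WT and 28.8% and 28.3% in cDC2_WT than in pDC_WT, 22.8% and 23.4% in cDC1_WT against cDC2_WT, and 7.72% and 7.04% in pDC_TG. In lists this short, counts near those shares say nothing about the list, and single genes carry the description. Of 9 transporters of glucose, pyruvate and lactate, 3 were higher and 4 lower in cDC1_WT than in pDC_WT, 3 and 2 in cDC2_WT, and 2 and 5 in cDC1_WT against cDC2_WT. Slc2a3, the high-affinity glucose transporter GLUT3, was 4.51 to 11.3 CPM in cDC1_WT against 138 to 224 in pDC_WT and 212 to 300.2 in cDC2_WT (log2FC -4.63 ± 0.15, adjusted p = 1.0e-21, and -5.12 ± 0.15, 5.5e-22). It was thus lowest in the cell type with the highest glycolytic sum. Slc2a1, encoding GLUT1, was not called between either conventional group and pDC_WT, with means of 37.8 ± 11.6 CPM in cDC1_WT, 51.7 ± 6.40 in cDC2_WT and 42.2 ± 9.42 in pDC_WT. Slc2a6 was lower than in pDC_WT in both (-2.96 ± 0.18, 6.2e-15, and -1.86 ± 0.17, 1.1e-10). Of the lactate carriers, Slc16a1 was higher in cDC1_WT than in pDC_WT (2.96 ± 0.47, 3.1e-06) and Slc16a3, the exporter MCT4, in cDC2_WT (3.19 ± 0.29, 4.2e-11). Mpc2, a subunit of the mitochondrial pyruvate carrier, was higher in cDC1_WT than in pDC_WT (1.03 ± 0.12, 7.4e-09).

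Of 16 further glycolysis genes 6 could be tested, and 2 of them marked the plasmacytoid cells. Pgam2, the muscle-type mutase, was 67.8 to 211 CPM in pDC_WT, 0.520 to 2.09 in cDC1_WT and 0.246 to 0.825 in cDC2_WT (log2FC -6.83 ± 0.29, adjusted p = 1.5e-18, and -8.00 ± 0.32, 2.5e-19). Adpgk, an ADP-dependent glucokinase of the endoplasmic reticulum, was 214 to 299 CPM in pDC_WT, 35.2 to 56.8 in cDC2_WT and 77.7 to 88.7 in cDC1_WT (-2.65 ± 0.09, 2.1e-21, and -1.65 ± 0.08, 6.5e-17). In pDC_TG Adpgk was 113, 110, 116 and 131 CPM, all below the controls (-1.16 ± 0.11, 2.0e-09), whereas Pgam2, at 57.1 to 84.9 CPM, was not called.

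Among 7 further citric acid cycle genes, 3 were higher and 0 lower in cDC1_WT than in pDC_WT, 0 higher and 3 lower in cDC2_WT, and 6 higher in cDC1_WT than in cDC2_WT. The leading ones were Idh1, the cytosolic isocitrate dehydrogenase, with 71.0 ± 9.96 CPM in cDC1_WT and 25.8 ± 5.45 in pDC_WT (log2FC 1.46 ± 0.14, adjusted p = 1.0e-10), and the succinate dehydrogenase subunits Sdhd (0.64 ± 0.09, 2.1e-07) and Sdhb, the latter lower in cDC2_WT than in pDC_WT (-0.59 ± 0.09, 1.3e-06). In pDC_TG 0 of the 7 were called by edgeR or DESeq2, with 1 at an unadjusted p under 0.05. Of 6 tested genes around pyruvate dehydrogenase, the kinase gene Pdk2 was lower than in pDC_WT in cDC1_WT (-2.22 ± 0.29, 7.6e-08) and cDC2_WT (-1.06 ± 0.28, 0.0015), Pdk3 was higher in cDC2_WT (0.44 ± 0.08, 1.6e-05), and the phosphatase gene Pdp1 was lower in pDC_TG (-0.84 ± 0.25, 0.019).

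Feeder and export genes of the cycle had 4 of 8 tested higher and 2 lower in cDC1_WT, 3 and 3 in cDC2_WT, and 1 and 2 in pDC_TG, each against pDC_WT. Glud1, which turns glutamate into oxoglutarate, was higher in cDC2_WT (log2FC 1.24 ± 0.07, adjusted p = 3.7e-15) and cDC1_WT (0.70 ± 0.07, 1.0e-09). Slc25a10, the dicarboxylate carrier, was higher in cDC1_WT (2.15 ± 0.16, 7.3e-13), cDC2_WT (1.74 ± 0.16, 8.5e-11) and pDC_TG (1.16 ± 0.18, 3.0e-05). In pDC_TG its libraries held 24.6, 29.6, 31.6 and 39.4 CPM. Me2, the mitochondrial malic enzyme, was lower in all 3, with a log2FC of -0.40 ± 0.07 (1.9e-05), -0.93 ± 0.07 (2.1e-12) and -0.61 ± 0.09 (1.1e-05).

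In the 8 pentose phosphate genes, 3 were higher and 2 lower in cDC1_WT, 4 and 3 in cDC2_WT, and 0 and 1 in pDC_TG, each against pDC_WT. Taldo1, the transaldolase, averaged 1505 ± 67.0 CPM in cDC1_WT, 1012 ± 71.4 in cDC2_WT and 548 ± 46.3 in pDC_WT (log2FC 1.46 ± 0.06, adjusted p = 8.3e-20, and 0.89 ± 0.06, 1.3e-14). Pgls was 431 to 594 CPM in pDC_WT and at most 180 in the conventional groups, but 20.6% of its exon bases overlap those of Fam129c, so its reads may not be its own.

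Of 16 regulators of the pathway tested, 4 were higher and 7 lower in cDC1_WT than in pDC_WT, 4 and 4 in cDC2_WT, and 0 in pDC_TG, where edgeR gave 5 an unadjusted p under 0.05 and DESeq2 called 1. Hif1a, the oxygen-regulated subunit of hypoxia-inducible factor, was lowest in cDC1_WT, 125 to 173 CPM, against 182 to 252 in cDC2_WT and 217 to 344 in pDC_WT (log2FC relative to pDC_WT -0.94 ± 0.09, adjusted p = 1.4e-10, and -0.47 ± 0.09, 3.6e-05). Vhl, which directs that subunit to degradation, was higher in cDC1_WT than in pDC_WT (1.44 ± 0.12, 1.1e-11), and Egln3, a hydroxylase that marks it, was lower (-6.40 ± 0.74, 9.0e-09). Myc, a transcription factor that drives glycolytic genes, was 9.75 to 49.4 CPM in cDC1_WT, 18.6 to 41.5 in cDC2_WT and 0 to 4.12 in pDC_WT (4.09 ± 0.53, 9.9e-08, and 4.45 ± 0.54, 3.0e-08). In pDC_TG Hif1a (-0.29 ± 0.11, 0.080) and Myc (1.07 ± 0.58, 0.25) were not called.

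Of 11 targets of hypoxia-inducible factor outside glycolysis, 5 were higher and 3 lower in cDC1_WT than in pDC_WT, 5 and 2 in cDC2_WT, and 3 and 1 in pDC_TG, to be read against the same shares of all genes. Vegfa, a growth factor of vessels, was higher in cDC2_WT than in pDC_WT (log2FC 5.84 ± 0.64, adjusted p = 4.7e-09). Ndrg1, a stress-responsive gene, averaged 68.3 ± 6.94 CPM in pDC_TG and 14.1 ± 4.93 in pDC_WT (2.28 ± 0.25, 6.4e-08). Ddit4, an inhibitor of mTORC1 signalling, was higher in pDC_TG (1.66 ± 0.43, 0.0068) and lower in cDC1_WT (-3.36 ± 0.42, 3.5e-08).

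The spread between libraries of a group differed by gene. Among genes averaging at least 10 CPM, the coefficient of variation of the glycolytic genes had a median of 8.44% in cDC1_WT, 8.91% in cDC2_WT, 10.4% in pDC_TG and 12.7% in pDC_WT. It ran from 2.36% for Aldoa to 34.0% for Eno3 in cDC1_WT, and reached 35.3% for Hk2 in cDC2_WT. For the 13 citric acid cycle genes the medians were 8.29% to 12.0%.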

How the data were processed

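For each of 28 libraries the authors deposited a table of raw counts, 1 whole number for each of 24421 gene symbols, with 5 closing lines that name no gene. Per the labels' protocols, cDNA was made from 4 ng of RNA by SMART-Seq v4 chemistry, and the libraries, built with 15 PCR cycles, were read as single 75-base reads on 2 flow cells, and no flow cell term was fitted because the labels assign no library to either. The build was mm10, and TopHat2 2.1.0, Trimmomatic 0.35, SAMtools 0.1.18 and FastQC 0.11.4 are named in the submitters' processing notes. The counting tool and the annotation are not given in the sources used here. Strand is not marked by this protocol, and without molecular identifiers PCR copies count as reads.

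Library sizes and tests exclude the closing lines; reads outside genes made up 8.23% to 18.7% of a library. In R 4.3.3 with edgeR 4.0.16, genes were filtered by filterByExpr (minimum count 10, minimum total 15), scaled by TMM and fitted in a robust quasi-likelihood model of all 28 libraries by group. Tests were two-sided, with Benjamini-Hochberg adjustment over all 13159 genes tested and a threshold of 0.05. Spread is thus shared by the 4 groups, with 24 residual degrees of freedom. The recovery of known changes was checked on simulated counts. Nothing in the labels says that libraries of a group came from separate mice, so p-values measure the spread between these libraries.

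Exon lengths and positions came from the GENCODE M21 annotation of GRCm38, and promoter windows from RefSeq. In each comparison the 6 called genes with the largest rise and the 6 with the largest fall, all isozyme families, and up to 3 genes per pathway list with the smallest adjusted p were named, with Irf8, Hif1a, Myc, Slc2a1 and Slc2a3; other genes were named after their values were seen. The members and lists were chosen with earlier results of these data known. Alternatives were DESeq2 1.42.0, total counts as library size, no filter, a test against a 1.5-fold change, a replicate block, the compared groups alone, WT replicates 1 to 4 or 5 to 8, and pDC_TG without each library.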

Additional observations from a re-analysis of the deposited data

Results flagged for a closer look

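In 8 of 156 sets of libraries (39 genes in 4 groups), 1 library lay far from the others by Dixon's test, and chance flags about 1 in 20, or 7.8 of 156. Hk3 was 2.07 CPM in pDC_WT replicate 6, against 0 to 0.864 CPM in the other pDC_WT libraries. Pfkm was 7.83 CPM in cDC1_WT replicate 8, against 0 to 3.60 CPM. Aldoc, the brain-type aldolase, was 40.6 CPM in cDC1_WT replicate 2, against 21.1 to 28.9 CPM. Pgam1 was 154 CPM in pDC_TG replicate 2 and 148 CPM in each of the others, a gap that is small in size. Eno1 was 5.42 CPM in pDC_WT replicate 1, against 1.35 to 3.12 CPM. Eno2 was 8.42 CPM in cDC2_WT replicate 5, against 0.829 to 4.05 CPM. Pdha1 was 82.4 CPM in pDC_WT replicate 4, against 52.5 to 66.7 CPM. Fh1 was lowest in pDC_TG replicate 1, 153 CPM against 187 to 192 CPM, and this library still lay above the highest pDC_WT library, 145 CPM.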

How the results depend on the processing

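Of 1403 log2FC values of the 39 genes under the alternatives, 1228 kept their direction and side of the threshold, 105 lost and 25 gained a call in the same direction, 41 changed sign without being called either way, and 4 changed sign where a value was called in at least 1 of the fits compared. The 41 came from 21 values of at most 0.23 in size as designed, and 11 of them from leaving out 1 pDC_TG library. The 4 came with total counts as library size: for cDC1_WT over pDC_WT, Aldoa (log2FC -0.0089), Pdhb (-0.21) and Idh3a (-0.037), and for cDC2_WT over pDC_WT, Pgam1 (-0.13). That scaling shifted the median of all genes by -0.25 and -0.15 in these comparisons and gave 10 genes called lower in each; between cDC1_WT and cDC2_WT it shifted it by -0.096. Against a 1.5-fold change, 1 gene was higher and 1 lower in pDC_TG, 15 higher and 3 lower in cDC1_WT and 8 higher and 3 lower in cDC2_WT than in pDC_WT, and 8 higher and 5 lower in cDC1_WT than in cDC2_WT. The pDC libraries alone, or WT replicates 1 to 4 alone, gave 3 genes higher in pDC_TG. WT replicates 1 to 4 gave 13 higher in cDC2_WT than in pDC_WT; fewer libraries enter these fits. Without each pDC_TG library in turn, 4 genes were called higher each time and 3 to 4 lower; Idh2 ranged from 0.81 to 0.96 and Ldhb from -1.49 to -1.37. Of 88 isozyme shares, 51 moved beyond 1 SD with the longest transcript as length.

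With the replicate number as a block, 7 genes were higher and 6 lower in pDC_TG, 27 and 6 in cDC1_WT and 21 and 7 in cDC2_WT relative to pDC_WT, and 15 and 9 in cDC1_WT relative to cDC2_WT. The block added a call for Pfkm, lower in cDC1_WT than in pDC_WT (-1.29). The labels do not say whether same-numbered libraries are paired. Between pDC_TG and pDC_WT their deviations correlated at -0.10 to 0.016, with 0 of 4 over 0.1. Between WT groups they correlated at 0.047 to 0.29, with 6 to 7 of 8 over 0.1. There 6 to 7 of 8 correlated best with their own number. Same-numbered WT libraries thus resembled each other, a likeness that the main fit leaves out.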
